A study of Homo sapiens with 9 samples.

Results

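The data compared here are the replicate 1 and replicate 2 arrays of A673, an established line of Ewing sarcoma cells with the EWS/FLI translocation. An array was included if its title gives it a replicate number, which held for 8 of the 9 arrays of the study. The 4 arrays of replicate 2 were set against the 4 of replicate 1, each within its own treatment, so that every difference is a mean of 4 pairs. The ninth array, from cells given another EZH2 siRNA, has no replicate number and no partner and was left out of the comparison.

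The study measured gene expression on Affymetrix arrays after knockdown of EZH2, the histone methyltransferase of Polycomb repressive complex 2, or after inhibition of histone deacetylases. The first pair of arrays came from cells transfected with a control siRNA at 5 nM for 48 hours, and the second from cells transfected with ezh2 siRNA no.2 at the same dose and time. In the other pairs the cells were held for 24 hours in 0.01% DMSO, the solvent, or in 100 nM trichostatin A (TSA), the deacetylase inhibitor. All 8 cultures were of the same line, in the same medium with fetal calf serum, and RNA was taken before full confluence. By their titles the replicates were biological. No label says whether they were separate cultures, and none gives a batch, a passage or a scan time. Each p-value therefore measures only the spread between these samples, and a difference between cultures cannot be told apart from one between labelling or hybridisation batches.

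Cultures of one cell line can differ in density, nutrient and oxygen supply and trace metals, and the genes that follow these include glycolytic enzymes, immediate early genes and metallothioneins. Metallothioneins are small proteins that bind zinc and copper, and zinc raises their transcription through the factor MTF1. An array measurement adds its own steps, since RNA is copied from its 3′ end, labelled with biotin and hybridised together with spiked control transcripts.

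The signal of EZH2 was lower with its siRNA in both replicates. With the control siRNA it was 1130 in replicate 1 and 1172 in replicate 2, and with ezh2 siRNA no.2 it was 572 and 271. It was 990 and 861 in DMSO and 1257 and 1055 in TSA. Over the 4 pairs EZH2 differed between replicates by −0.35 on the log2 scale (SE 0.20, limma adjusted p = 0.36), with 3 of 4 pairs lower in replicate 2. The lowest signal of all was that of the siRNA array of replicate 2. Of the 11 Ewing sarcoma markers listed, the 9 present on the array all passed the filter on low signal, and CD99 lay between 14840 and 19651. Of the other markers on the array, 0 of 5 epithelial, 1 of 5 endothelial, 3 of 6 blood and 3 of 6 fibroblast ones passed it. Passing the filter alone thus names no cell type.

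**Figure D1:**
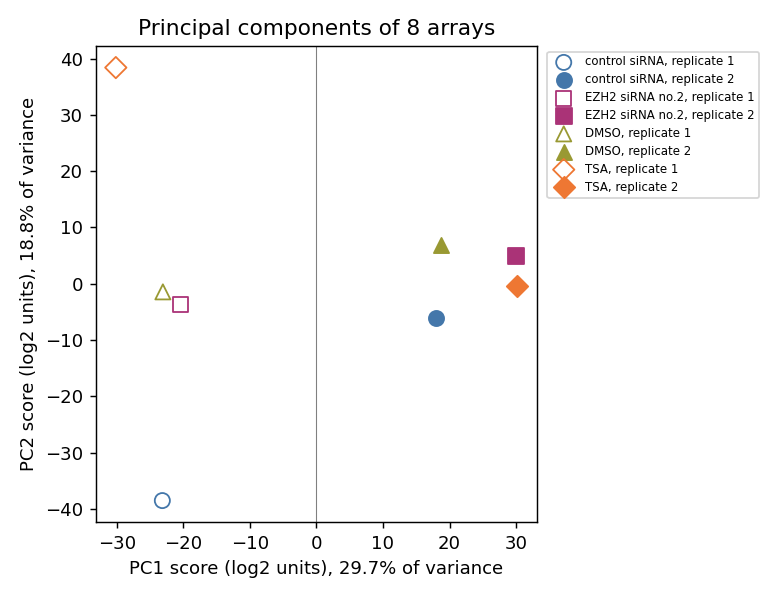
Scores of the 8 arrays on the first and second principal component of the log2 signals of 15550 probe sets (both axes in log2 units, the share of variance in brackets of the axis titles). Open symbols are replicate 1 and filled symbols replicate 2; the replicate numbers lie on opposite sides of 0 on the horizontal axis, and the control siRNA and TSA arrays of replicate 1 lie farthest apart on the vertical axis.

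The first principal component separated the replicate numbers. It held 29.7% of the variance, with scores of −30.2 to −20.5 in replicate 1 and 18 to 30.1 in replicate 2. Averaged over probe sets, the treatment took 40.7% of the sum of squares, with 42.9% of the degrees of freedom, and the replicate number took 23.9%, with 14.3% of them. At 8433 of 15550 probe sets (54.2%) the replicate number took more of the variance per degree of freedom than the treatment. With unequal degrees of freedom an even split is not what chance would give, and the share expected by chance was not computed. The 2 arrays of a treatment correlated across probe sets at r = 0.952 (control siRNA), 0.954 (ezh2 siRNA no.2), 0.961 (DMSO) and 0.936 (TSA), as a description across probe sets, which are not replicates. The share of probe sets at least 2-fold apart was 8.50%, 6.76%, 5.88% and 10.3% in the same order. The DMSO arrays were the closest pair and the TSA arrays the farthest apart.

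Across probe sets, the differences of any 2 pairs correlated positively. The coefficient was 0.42 between the ezh2 siRNA no.2 and TSA pairs, 0.37 between DMSO and TSA, 0.33 between the 2 siRNA pairs, and 0.12 between control siRNA and TSA. No array was shared between these pairs, but the probe sets were, with their brightness and base composition. The weakest of these relations was between the pairs of control siRNA and TSA, whose replicate 1 arrays lay farthest apart on the second principal component.

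Of 15550 probe sets tested, 363 (2.33%) passed the limma adjusted p threshold of 0.05, 226 of them (1.45%) higher and 137 (0.881%) lower in replicate 2. Counted once per gene, by its probe set of highest mean signal, 135 of 9097 genes (1.48%) passed, 82 (0.901%) higher and 53 (0.583%) lower. All 135 had one sign in the 4 pairs, and in 118 the 4 values of one replicate did not overlap those of the other. Genes picked by their p over these same pairs tend to have both traits, so these counts are a description only. Over all genes, 1433 (15.8%) were higher in 4 of 4 pairs and 865 (9.51%) lower. Without overlap, 544 of all genes (5.98%) were higher in replicate 2 and 298 (3.28%) were lower. Among the genes that passed, 49 were at least 2-fold higher and 29 at least 2-fold lower, and the smallest difference was 0.70 on the log2 scale.

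The split into higher and lower calls moved with the scaling of the arrays. It was 190 higher and 169 lower after quantile normalization, 178 and 182 after cyclic loess normalization, and 162 and 283 after each array was scaled to the same median. The last of these moved the median difference of all genes from 0.06 to −0.05. Without the filter on low signal 0 probe sets passed in limma (3556 at an unadjusted p under 0.05, lowest adjusted p = 0.066), and without the ezh2 siRNA no.2 pair only 7 did.

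Among the genes higher in replicate 2, PTPRO, a receptor-type protein tyrosine phosphatase, had the largest difference. From replicate 1 to replicate 2 its signal went from 1229 to 11190 in the control siRNA pair, from 588 to 7631 in the ezh2 siRNA no.2 pair, from 2034 to 9715 in the DMSO pair and from 1926 to 6101 in the TSA pair. All 4 arrays of replicate 2 lay above all 4 of replicate 1. The means were 1444 ± 673.04 (SD, n = 4) and 8659 ± 2245 (SD, n = 4), a difference of 2.67 on the log2 scale (SE 0.27, limma adjusted p = 0.0049), or 6.38-fold. Another PTPRO probe set differed by 0.44 and did not pass the threshold, so the size of the PTPRO difference depends on the probe set.

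The next genes in this direction included a pair of intronic transcripts, and most had low signals. ASAP1-IT1, transcribed within an intron of ASAP1, read 48.2, 64.7, 90.7 and 73.4 in replicate 1, in the order control siRNA, ezh2 siRNA no.2, DMSO and TSA, and 426, 390, 241 and 265 in replicate 2. SND1-IT1, of the same kind, read 13.8, 54.4, 8.56 and 23.6 in replicate 1 and 135, 179, 87.1 and 119 in replicate 2. Neither gene's groups overlapped, and the differences were 1.90 and 1.68 on the log2 scale (limma adjusted p = 0.0081 and 0.013). Of the 5 probe sets of intronic transcripts tested, 2 passed, both higher, and of 22 of antisense transcripts 1 passed, against 2.33% of all probe sets. Of the antisense ones 21 had a positive difference, with a median of 0.34 against 0.05 over all probe sets. How far these probe sets read unspliced RNA was not tested.

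PLCD1, a phospholipase C, had the most even rise of those named here. Its signal was 49.5, 53.03, 82.9 and 39.3 in replicate 1, in the same order, and 209, 206, 245 and 195 in replicate 2. The 4 pair differences ran from 1.32 to 1.78, with a mean of 1.58 (SE 0.21, limma adjusted p = 0.0081). PGF, a growth factor of the VEGF family, rose from 285 ± 33.9 (SD, n = 4) to 826 ± 196 (SD, n = 4), or 2.70-fold (limma adjusted p = 0.0081). Another PGF probe set differed by −0.09, so the rise was seen on 1 of its 2 probe sets.

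The other genes in this direction passed with differences of 1.33 to 1.77 and limma adjusted p-values of 0.0083 to 0.037. They were KIAA0754, SEMA3D (a secreted guidance factor), LONRF1 (a RING finger protein), SIGLEC15 (a lectin that binds sialic acid), MTCL2, RUFY2, RPS6KA6 (a kinase of the RSK family), ITPR2 (a calcium release channel of the endoplasmic reticulum), XRCC2 (a factor of homologous recombination) and DIP2A. RUFY2 varied most within this set, from 0.61 in the DMSO pair to 2.89 in the control siRNA pair. Other tested probe sets of ITPR2 differed by 0.66 and 0.23, and neither passed. Of the 15 genes higher in replicate 2 that are named here, 10 had a mean signal under 200, so their fold changes on the log2(signal + 25.1) scale understate the ratio of signals. KIAA0754, SEMA3D, SND1-IT1, SIGLEC15 and RPS6KA6 had replicate 1 means under the filter of 53.1. They passed the filter through replicate 2, so their selection was not independent of the difference.

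MMP1, an interstitial collagenase, passed with 1.95 (SE 0.37, limma adjusted p = 0.025), although its groups overlapped; it was singled out after its values had been seen. Its signal went from 1383 to 9620, from 1026 to 6365 and from 1578 to 8407 in the ezh2 siRNA no.2, DMSO and TSA pairs, but only from 1315 to 1324 in the control siRNA pair. The control siRNA pair was thus level while the other pairs rose at least 5-fold.

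**Figure D2:**
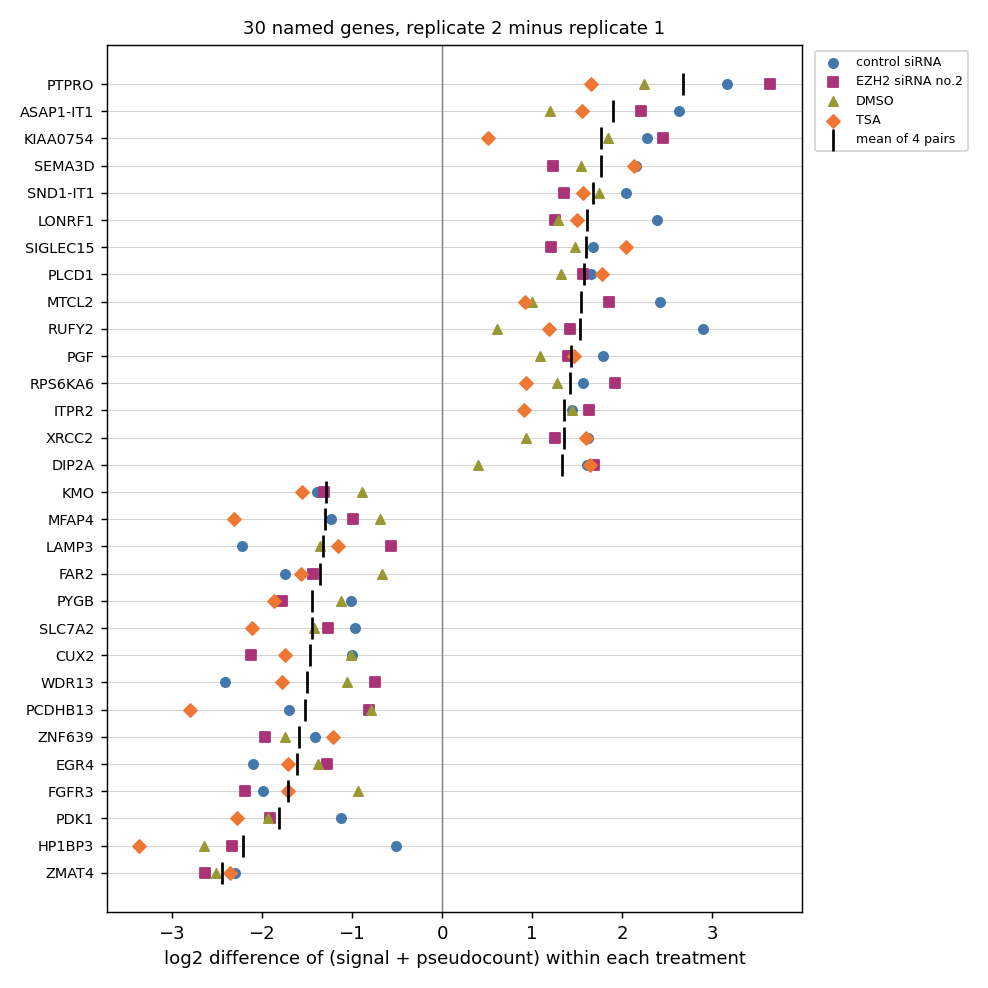
Difference between replicate 2 and replicate 1 (horizontal axis, log2 of signal + 25.1) of the 15 genes with the largest rise and the 15 with the largest fall among genes past the threshold whose groups did not overlap. Coloured symbols are the 4 treatments and black bars their mean; all pairs of a gene lie on one side of 0, from PTPRO at a mean of 2.67 to ZMAT4 at −2.45.

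Lower in replicate 2 was, first of all, ZMAT4, which encodes a matrin-type zinc finger protein. It went from 184 to 17.7 in the control siRNA pair, from 256 to 20.4 in the ezh2 siRNA no.2 pair, from 308 to 33.5 in the DMSO pair and from 224 to 23.6 in the TSA pair. The lowest value of replicate 1 was more than 5-fold above the highest of replicate 2, and the 4 pair differences were the most even of the named falls, at −2.63 to −2.29. The mean difference was −2.45 (SE 0.22, limma adjusted p = 0.0027), the lowest adjusted p of all probe sets. Of the replicate 2 values 3 lay under the pseudocount, so the size of this fall is not well measured.

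HP1BP3, a protein that binds heterochromatin, fell by 2.21 (SE 0.35, limma adjusted p = 0.015), with unequal pairs. Its signal went from 660 to 112, from 606 to 76.0 and from 862 to 61.0 in the ezh2 siRNA no.2, DMSO and TSA pairs, but from 652 to 450 in the control siRNA pair. The control siRNA array of replicate 2 lay nearest to replicate 1. KMO, kynurenine 3-monooxygenase of tryptophan breakdown, fell from 1314 ± 383 (SD, n = 4) to 532 ± 192 (SD, n = 4), or 2.43-fold (limma adjusted p = 0.0083), and another of its 3 probe sets passed too, at −1.13.

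The remaining named falls ran from −1.81 to −1.30, with limma adjusted p-values of 0.0081 to 0.047. FGFR3, a fibroblast growth factor receptor, fell by 1.70, from 140, 217, 148 and 350 to 16.3, 28.3, 65.5 and 90.2. EGR4, a zinc finger factor of the early growth response family, fell by 1.61, and ZNF639 by 1.58. Another probe set of FGFR3 differed by −0.84 and another of EGR4 by −0.46, and neither passed. Enzymes and transporters in this set were PDK1 (pyruvate dehydrogenase kinase), PYGB (glycogen phosphorylase), SLC7A2 (a carrier of cationic amino acids) and FAR2 (a fatty acyl-CoA reductase). CUX2 (a homeobox factor), PCDHB13 (a protocadherin), LAMP3 (a lysosomal membrane protein), MFAP4 (a microfibril-associated protein) and WDR13 completed it. ZMAT4, PDK1, FGFR3, ZNF639, SLC7A2 and LAMP3 had replicate 2 means under the filter of 53.1. These genes passed the filter through replicate 1, so their selection was not independent of the difference.

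All 30 named genes kept their direction under every setting in which they were refitted. These genes were chosen for groups that did not overlap, so each had the same sign in every pair. Leaving out a pair or changing the pseudocount, filter, eBayes trend or pairing thus could not reverse them. Of the settings, only the other scalings could have done so. The 30 genes stayed past the threshold under the 3 other scalings, and 27 did without pairing by treatment. Only 2 of 30 passed without the ezh2 siRNA no.2 pair, where limma adjusted p-values ran from 0.022 to 0.16, and none passed without the filter (0.066 to 0.13).

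Genes with several probe sets gave an internal comparison, since each probe set reads another stretch of the transcript, although some share probes. Of the genes that passed, 43 had further tested probe sets, 70 in all; 60 of the 70 had the sign of the gene's brightest probe set and 10 passed themselves. For genes called higher, the median difference was 0.88 on the called probe set and 0.27 on the 35 others, of which 3 passed. For genes called lower it was −0.87 and −0.47, and 7 of the 35 others passed. The called probe sets were chosen for their difference, so the smaller values of the others are a description only.

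Among the 3020 genes with at least 2 tested probe sets, 15 had at least 2 that passed, chosen after their values had been seen. In 9 the passing probe sets all fell, and in 6 they all rose. IFI16, an interferon-inducible sensor of DNA, fell on all 3 of its probe sets, at −0.91, −1.003 and −0.72, of which the first 2 passed (limma adjusted p = 0.025 and 0.029) and the last did not (0.068). On the first, the replicate 1 values were 977, 1054, 1426 and 1203 and the replicate 2 values 449, 715, 680 and 595, without overlap. PLOD2, a lysyl hydroxylase that modifies collagen, fell on both of its probe sets by 0.86 and 0.94. LITAF, a membrane protein of late endosomes and lysosomes, fell on both by 1.14 and 0.83, and FERMT1, the integrin activator kindlin-1, by 1.10 and 1.40. GPAA1, KMO, CASP2 and SGSM3 were the other genes of this kind beside DCN, although the brightest probe sets of CASP2 (−0.44) and SGSM3 (−0.48) did not pass.

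DCN encodes decorin, a matrix proteoglycan and a marker of fibroblasts. Its brightest probe set read 463, 506, 536 and 580 in replicate 1 and 291, 257, 331 and 251 in replicate 2, without overlap, a difference of −0.83 (SE 0.17, limma adjusted p = 0.036). The other DCN probe sets differed by −1.07, which passed, and −0.66, which did not. The summed signal of the 6 fibroblast markers was 2017 to 3027 in replicate 1 and 1655 to 1760 in replicate 2, with THY1 and PDGFRB also lower in mean signal (1447 to 1124, and 410 to 264). LUM, PDGFRA and FAP, from the same list, lay below the filter. Of the 26 collagen and matrix genes tested, DCN was the only one that passed. All cultures were of the same tumour cell line, so the summed signal of these markers is not a measure of fibroblasts here. Whether the fall of DCN was shared by all cells of a culture was not tested, since each array reads bulk RNA.

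Rises on 2 probe sets were found for NEFL, the light neurofilament subunit. Its brightest probe set read 720.5, 859, 413 and 936 in replicate 1 and 1035, 1997, 1489 and 1738 in replicate 2, all of the latter above all of the former, a difference of 1.09 (SE 0.21, limma adjusted p = 0.027). Its other probe sets differed by 0.95, which passed, and 0.46, which did not. GYG1, the glycogenin that primes glycogen synthesis, rose on both of its probe sets, by 0.95 and 0.83. N4BP2L2, PRDX2 (a peroxiredoxin) and RPL37A (a ribosomal protein) rose on some of their probe sets, while the brightest of each did not pass, at −0.016 for N4BP2L2, 0.12 for PRDX2 and 0.22 for RPL37A. CALR, the calcium-binding chaperone calreticulin, rose on 2 probe sets by 1.08 and 0.87, while the third one differed by −0.31 (limma adjusted p = 0.34). Probe sets of these genes that point in different directions make a change of the whole transcript uncertain.

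The kind of probe set went together with the direction, as seen when classes were drawn after the values were known. Identifiers were grouped by their first 3 digits, and the group with the highest share past the threshold was taken out. Of its 507 probe sets, 62 (12.2%) passed, 57 higher and 5 lower, against 2.00% of the other 15043. The group was picked by this share, so a share above that of the rest was fixed by the choice. The next identifier group had 5.38%. The median difference of the 507 was 0.24, and with equal array medians 47 of them passed higher and 10 lower. Of the 15 named rises 6 belong to this identifier group (KIAA0754, SEMA3D, LONRF1, SIGLEC15, PGF and DIP2A), and of the 15 named falls 0 do. Of 1128 probe sets that name no gene 77 (6.83%) passed, 68 of them higher. Of 7490 whose identifier ends _at without a letter, 142 passed higher and 41 lower (2.44%). Of 6169 that end _s_at it was 35 and 77 (1.82%), and of 1857 that end _x_at 48 and 19 (3.61%).

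Dim probe sets had higher differences than bright ones. Over 5 groups of 3110 probe sets ordered by mean signal, the median difference was 0.19 in the dimmest, then 0.10, and −0.01 in the brightest. Limma was fitted again to the probe sets that name 1 gene and lie outside the identifier group picked above. With the p-values adjusted over these alone, 160 passed, 75 higher and 85 lower. This fit was chosen after the data had been seen.

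**Figure D3:**
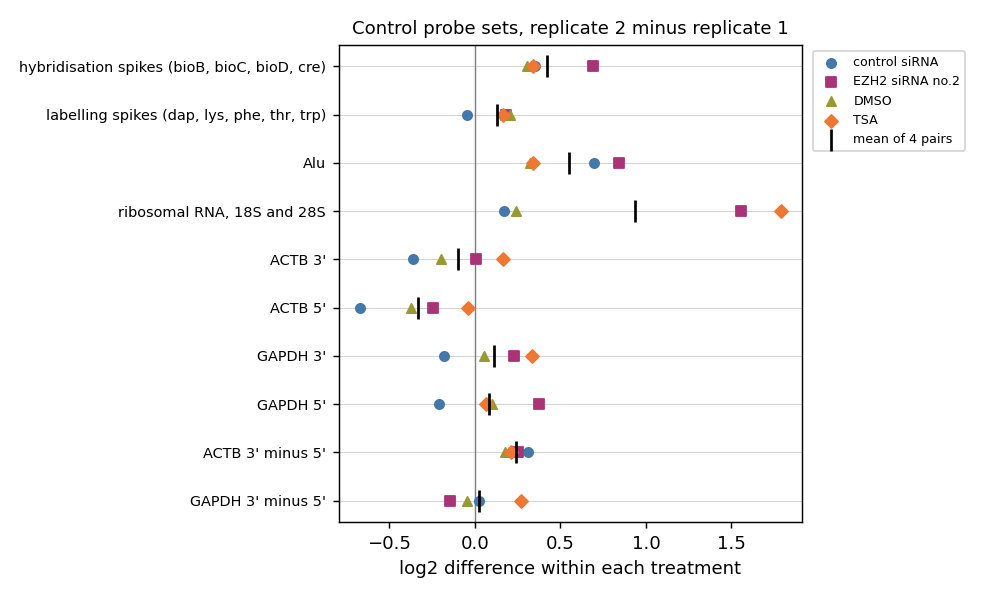
Difference in log2 signal between replicate 2 and replicate 1 (horizontal axis) for groups of control probe sets and for 3′ minus 5′ values of 2 genes. Coloured symbols are the 4 treatments and black bars their mean; hybridisation spikes, Alu, ribosomal RNA and the ACTB 3′ minus 5′ values are above 0 in all pairs, and the 5′ probe set of ACTB is below 0.

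The control probe sets differed between the replicate numbers in the same pairs. The hybridisation spikes, transcripts added to each labelled sample in fixed amounts, had mean log2 signals of 9.90 to 10.23 in replicate 1 and 10.49 to 10.59 in replicate 2, without overlap, a difference of 0.42 ± 0.18 (SD of 4 pairs). The probe set for Alu, an abundant repeat of the human genome, read 16428, 15116, 20584 and 19754 in replicate 1 and 26675, 27125, 25759 and 25052 in replicate 2, again without overlap. Probe sets for ribosomal RNA were higher in replicate 2 by 0.94 on average, in 4 of 4 pairs but unequally: by 1.55 with ezh2 siRNA no.2 and 1.79 in TSA, and by 0.17 with the control siRNA and 0.24 in DMSO. In a family of 15 control measures the exact paired permutation test gave p = 0.13 for each of these, two-sided, which is the smallest p that 4 pairs allow (0.27 after Benjamini-Hochberg adjustment).

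Signal near the 5′ end of ACTB, the cytoskeletal actin used as a control of RNA quality, was lower in replicate 2 in 4 of 4 pairs. The 3′ to 5′ ratio of ACTB was 1.03, 1.04, 1.14 and 1.25 in replicate 1, in the order control siRNA, ezh2 siRNA no.2, DMSO and TSA, and 1.28, 1.24, 1.29 and 1.44 in replicate 2, higher in 4 of 4 pairs with overlapping groups. For GAPDH it was higher in 2 pairs and lower in 2. A ratio that rises means less signal far from the 3′ end, where copying of the RNA starts. The part of these differences in the gene differences above was not tested.

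**Figure D4:**
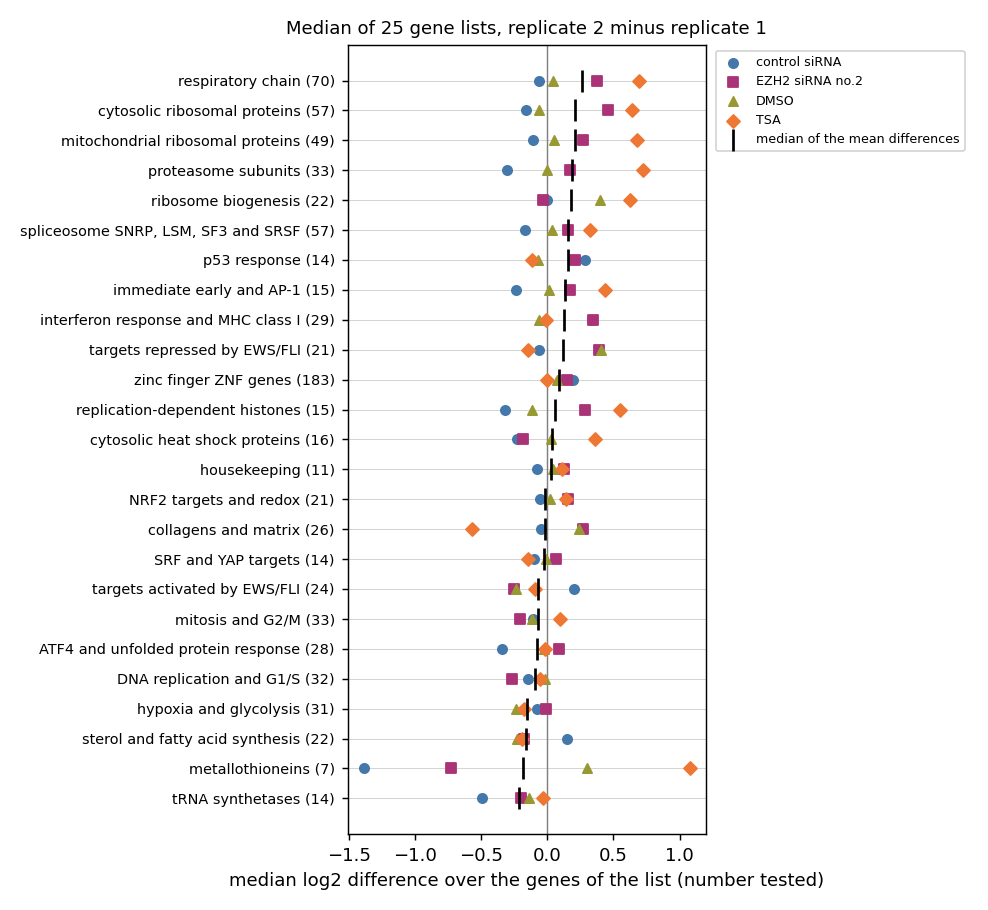
Median difference between replicate 2 and replicate 1 over each of 25 gene lists (horizontal axis, log2; number of genes tested in brackets). Coloured symbols are the medians within the 4 treatments and black bars the median over the list of the mean differences; the respiratory chain lies highest at 0.26, the tRNA synthetases lowest at −0.21, and the metallothioneins spread from −1.38 to 1.08.

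The 25 gene lists, which describe pathways and gene families, held few genes that passed, and are described by their counts and medians beside the background of all genes (1.48% past the threshold, 57.9% positive, median 0.06). The lists with the highest medians were those of energy metabolism and protein synthesis, and 0 of their genes passed. Among 70 subunits of the respiratory chain, the complexes that carry electrons to oxygen, 57 had a positive difference, with a median of 0.26. COX7B came nearest to the threshold, from 3787 ± 1005 (SD, n = 4) to 6322 ± 812 (SD, n = 4), with a limma adjusted p of 0.053. Of 57 cytosolic ribosomal proteins 49 were positive (median 0.21), and of 49 mitochondrial ribosomal proteins 44 (median 0.21).

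These medians came mainly from the ezh2 siRNA no.2 and TSA pairs. For the respiratory chain the ezh2 siRNA no.2 pair had 0.38 and the TSA pair 0.70, against −0.06 in the control siRNA pair and 0.05 in the DMSO pair. In the order control siRNA, ezh2 siRNA no.2, DMSO and TSA, cytosolic ribosomal proteins had −0.16, 0.46, −0.06 and 0.64, and mitochondrial ones −0.10, 0.27, 0.05 and 0.68. In the control siRNA pair all 3 medians were thus below 0. The ribosomal RNA probe sets were also higher in these same 2 pairs than in the other two, and whether the difference between pairs exceeds chance was not tested. Proteasome subunits (33, median 0.18) had the values −0.30, 0.17, 0.00 and 0.72, and ribosome biogenesis factors (22, median 0.18) 0.00, −0.03, 0.40 and 0.63.

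Spliceosome genes gave 2 rises of 57 (3.51%, against 0.901% of all genes). SNRPD3 and SNRPF are Sm proteins of the small nuclear ribonucleoproteins. SNRPD3 read 3067, 1963, 3106 and 1897 in replicate 1 and 5018, 5107, 5069 and 4850 in replicate 2, without overlap, and rose by 1.03 (SE 0.17, limma adjusted p = 0.019). SNRPF rose by 1.08 (SE 0.20, limma adjusted p = 0.023). The replicate 2 values of SNRPD3 were almost level across treatments while those of replicate 1 were not. The list's median was 0.16 and 37 of its 57 genes were positive.

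Hypoxia and glycolysis genes leaned the other way. Of 31 tested, 20 were lower in replicate 2 (median −0.16), 10 were lower in all 4 pairs, against 9.51% of all genes, and 2 passed as falls (6.45%, against 0.583% of all genes). SLC2A3, a glucose transporter, read 88.7, 241, 186 and 211 in replicate 1 and 24.2, 94.2, 25.1 and 28.3 in replicate 2, a difference of −1.64 (SE 0.26, limma adjusted p = 0.014), with overlap only between the control siRNA array of the first and the ezh2 siRNA array of the second. Apart from 94.2, its replicate 2 values lay near the pseudocount of 25.1, and its other tested probe sets differed by −0.34 and −0.05. PDK1, whose product holds back the oxidation of pyruvate in mitochondria, fell from 106 ± 35.2 (SD, n = 4) to 11.3 ± 2.19 (SD, n = 4), with all replicate 2 values under the pseudocount. The replicate 2 means of SLC2A3 (42.9) and PDK1 (11.3) lay under the filter of 53.1, so both passed the filter through replicate 1. The share of falls in this list is therefore a description only. The median of the list stayed below 0 under every setting, from −0.28 to −0.11.

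Of the 14 tRNA synthetases, 12 were lower in replicate 2, with a median of −0.21 and 0 past the threshold. AARS1 came nearest, at −0.38 (limma adjusted p = 0.21). DNA replication genes (32 tested, 22 negative, median −0.09) and mitotic genes (33 tested, 19 negative, median −0.07) gave 0 past. Sterol and fatty acid genes gave 0 of 22 (median −0.16) and targets activated by EWS/FLI 0 of 24 (median −0.07); among the latter CCND1, cyclin D1, differed by 0.63 (limma adjusted p = 0.080). Targets repressed by EWS/FLI gave 0 of 21 (median 0.12), replication-dependent histones 0 of 15 (0.06) and the housekeeping list 0 of 11 (0.03). The medians of the 3 lists of respiratory chain and ribosomal proteins stayed above 0 under every setting. Those of the zinc finger, heat shock, histone and housekeeping lists turned negative when each array was scaled to the same median.

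Further lists gave few genes past the threshold. Of 15 immediate early genes 1 rose and 1 fell (13.3% past the threshold, against 1.48% of all genes). NR4A1, an orphan nuclear receptor, rose from 61.9 ± 23.4 (SD, n = 4) to 157 ± 23.3 (SD, n = 4), by 1.09 (limma adjusted p = 0.042). Its other tested probe sets differed by 0.43 and 0.84, and neither passed. ZFP36, which destabilises mRNAs with AU-rich elements, fell from 158, 159, 235 and 152 to 51.5, 72.5, 56.8 and 52.2, by 1.26 (SE 0.22, limma adjusted p = 0.020). HMOX1, heme oxygenase, rose by 1.19 (SE 0.22, limma adjusted p = 0.025) from 91.2, 117, 63.9 and 15.2 to 203, 263, 160 and 108, and was the only one of 21 NRF2 and redox genes to pass. CRIM1, of the 14 SRF and YAP targets, rose by 0.83. The zinc finger ZNF genes gave 3 rises (ZNF721, ZNF160 and ZNF767P) and 1 fall (ZNF639) of 183, a share of 2.19% that is near the 1.48% of all genes. Of the 28 genes of the ATF4 and unfolded protein response, CALR alone passed. None passed among 29 interferon response genes (median 0.13), 14 p53 response genes (0.16) and 16 cytosolic heat shock proteins (0.04), with 3, 3 and 0 genes at an unadjusted limma p under 0.05.

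The metallothioneins showed the widest spread between pairs of all 25 lists. Their difference was opposite in the siRNA and the drug cultures, so that their mean over 4 pairs was small and 0 of 7 passed. In the control siRNA pair their median was −1.38, in the ezh2 siRNA no.2 pair −0.72, in DMSO 0.30 and in TSA 1.08. MT2A read 8191, 4220, 1842 and 1506 in replicate 1, in the order control siRNA, ezh2 siRNA no.2, DMSO and TSA, and 3185, 3759, 1926 and 2523 in replicate 2. MT1X read 4254, 1955, 569 and 323 in replicate 1 and 1490, 1430, 620 and 859 in replicate 2. In replicate 1 both siRNA arrays lay above both drug arrays by at least 2-fold, and in replicate 2 the treatments lay closer together, still with the siRNA arrays on top.

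**Figure D5:**
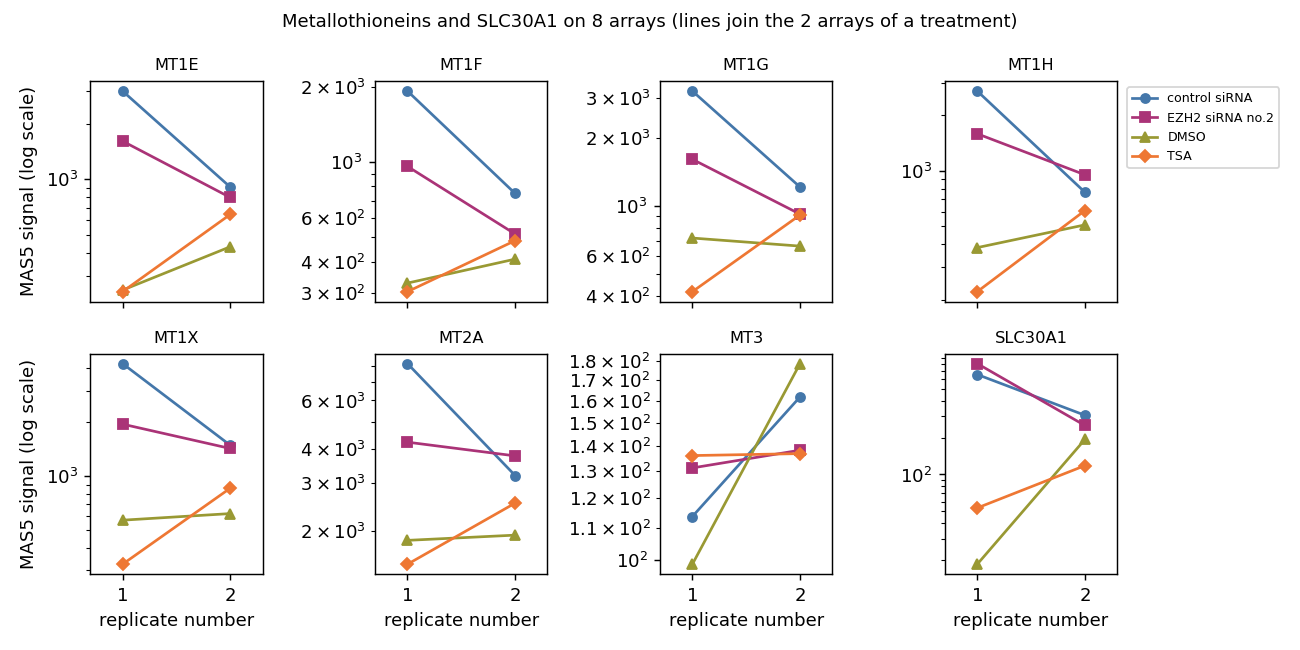
MAS5 signal (vertical axis, log scale, its range differing between panels) of 7 metallothioneins and the zinc exporter SLC30A1 on the arrays of replicate 1 and replicate 2 (horizontal axis). Lines join the 2 arrays of a treatment; apart from MT3, the siRNA lines fall and the TSA line rises in every panel, and the DMSO line rises except for MT1G.

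SLC30A1 exports zinc from the cell and is itself a target of MTF1. Its signal went from 655 to 305 and from 804 to 251 in the siRNA pairs, and from 18.5 to 193 and from 53.3 to 118 in the DMSO and TSA pairs. The siRNA pairs minus the drug pairs gave −2.91 on the log2 scale (limma adjusted p = 0.40), and MT1E gave −2.37 (limma adjusted p = 0.40), MT1H −2.13 and MT1HL1 −2.57 (both 0.57). Probe sets of the MT1 genes can read each other's transcripts, since the genes are nearly identical, so their values are not independent and cannot be assigned to 1 gene with certainty.

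The regions before the start sites of these genes are shown because their probe sets moved together. They are the 250 bases upstream in RefSeq, build GRCh38.p14, printed 5′ to 3′ on the strand of the gene. Capitals mark each match, on either strand, to TGCACNC, a form of the core that MTF1 recognises; matches counted did not overlap. MT2A lies on the plus strand at chr16:56608334-56608583, MT1X on the plus strand at chr16:56682220-56682469, and SLC30A1 on the minus strand at chr1:211579162-211579411.
MT2A: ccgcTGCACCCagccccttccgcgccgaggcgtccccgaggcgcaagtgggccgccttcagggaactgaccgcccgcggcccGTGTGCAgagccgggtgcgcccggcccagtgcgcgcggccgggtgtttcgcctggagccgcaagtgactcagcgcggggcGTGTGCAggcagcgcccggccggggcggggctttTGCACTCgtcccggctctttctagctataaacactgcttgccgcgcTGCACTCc
MT1X: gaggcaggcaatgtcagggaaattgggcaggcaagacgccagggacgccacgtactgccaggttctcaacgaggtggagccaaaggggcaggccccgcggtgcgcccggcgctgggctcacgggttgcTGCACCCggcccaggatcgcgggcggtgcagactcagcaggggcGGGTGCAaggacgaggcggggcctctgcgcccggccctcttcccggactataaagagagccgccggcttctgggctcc
SLC30A1: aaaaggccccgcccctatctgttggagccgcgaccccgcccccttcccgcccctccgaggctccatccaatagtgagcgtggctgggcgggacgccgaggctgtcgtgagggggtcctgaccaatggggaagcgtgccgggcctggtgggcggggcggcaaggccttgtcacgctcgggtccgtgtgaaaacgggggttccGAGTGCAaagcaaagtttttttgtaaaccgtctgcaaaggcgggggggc
MT2A held 5 matches, MT1X 2 and SLC30A1 1, and MT1H, whose sequence is not printed, held 4. Of 35116 RefSeq promoters of the same length, 9.87% held at least 1 match and 0.182% at least 3. A match is a description of the letters and not a measured site.

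Across all probe sets, 0 of 15550 (0%) passed for a difference between the siRNA pairs and the drug pairs (lowest limma adjusted p = 0.18), with 1191 (7.66%) at an unadjusted p under 0.05. ALDOC, a glycolytic aldolase, came nearest: it read 337 and 211 in the siRNA arrays of replicate 1 and 719 and 312 in those of replicate 2, but 2309 and 924 against 561 and 268 in DMSO and TSA. Its siRNA pairs rose and its drug pairs fell, a difference of 2.62. OPTN, an autophagy receptor, had the same pattern with 2.18, POLD4, a subunit of DNA polymerase delta, with 1.97, FSD1 with 1.82 and ZSWIM8 with 1.60. PAK1IP1 went the other way with −1.95. Without the control siRNA pair 9 probe sets passed this test and without the ezh2 siRNA no.2 pair 64, in fits where 1 siRNA pair stood alone and was assumed to vary like the drug pairs.

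Other genes on which the study may bear did not pass. EMP1 differed by −0.15, GAP43 by 0.25 and NGFR by 0.18 (limma adjusted p = 0.81, 0.53 and 0.76), with pair differences of EMP1 from −1.19 to 0.95. The other tested GAP43 probe sets differed by 0.65 and −0.065. The probe sets of GFAP lay below the filter.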

How the data were processed

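The intensity values deposited by the authors are MAS5 signals, per the submitters' processing notes. The sources used here do not give its version. The trimmed mean signal was 500.1 to 500.2 on each array, and median signals ran from 125 to 159; the number of arrays limits the precision. Probe sets were named through the platform's annotation, which gives 1 gene for 19065 of 22283, several for 1043 and none for 2107, and 19053 of those symbols were matched to RefSeq by gene ID. Another 68 are controls and were not tested with the rest.

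Signals were turned into log2(signal + 25.1), the pseudocount being the 20th percentile of all values. Probe sets with a mean signal under the 30th percentile (53.1) were dropped. Treatment and replicate number were fitted with limma 3.58.1 in R 4.3.3 (lmFit, eBayes with trend, 3 residual and 8.27 prior degrees of freedom), two-sided, with Benjamini-Hochberg adjustment over 15550 probe sets and a threshold of 0.05. The siRNA pairs were compared with the drug pairs by an interaction term (2 residual degrees of freedom). The fit was tested on simulated data with 200 changed probe sets.

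Named genes were the 15 each way with the largest differences among those past the threshold whose groups did not overlap, 5 each way for the interaction, up to 4 past the threshold from each of 25 lists (otherwise the 2 of smallest p), and EZH2, EMP1, GAP43, NGFR and GFAP. The members and lists were chosen with earlier results of these data known. Probe set classes, genes with several passing probe sets and MMP1 were added after the values were seen. Alternatives were other pseudocounts, filters, scalings, summaries per gene, fits and left-out pairs. Promoters were matched by symbol for 4 of 8 genes. One control transcript is not reported here.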

Additional observations from a re-analysis of the deposited data

Results flagged for a closer look

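In 4 of 70 sets of 4 pair values, 1 pair lay far from the others by Dixon's criterion, which chance does in about 1 of 20 sets. The hybridisation spikes differed by 0.69 in the ezh2 siRNA no.2 pair, against 0.31 to 0.35 in the other pairs. The probe sets for labelling spikes, bacterial transcripts that can be added before labelling, differed by −0.044 in the control siRNA pair, against 0.17 to 0.21 elsewhere. Their mean log2 value, pseudocount included, was only 5.17 in replicate 1 and 5.30 in replicate 2, a mean signal under the pseudocount. Values this low do not show that such transcripts were present, so no difference in labelling is read from them. DIP2A differed by 0.39 in DMSO, against 1.61 to 1.68 elsewhere. The median of the sterol and fatty acid genes was 0.15 in the control siRNA pair, against −0.23 to −0.17 in the other pairs.

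For 4 gene lists the medians of both siRNA pairs lay on the opposite side of 0 from those of both drug pairs; these differences were not tested. The metallothioneins differed most, with the siRNA pairs minus the drug pairs at −1.74. The cytosolic heat shock proteins, chaperones that respond to unfolded proteins, had −0.40, with pair medians of −0.23 and −0.18 against 0.03 and 0.36. The interferon response and MHC class I genes had 0.38, with 0.34 and 0.34 against −0.06 and −0.01. The p53 response genes had 0.34, with 0.29 and 0.21 against −0.07 and −0.11.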

How the results depend on the processing

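Arrays were paired by treatment; without this pairing 388 probe sets passed, 310 of them shared. With the replicate number as a further block, no paired analysis was possible because that number is what was compared. Probe sets past the threshold numbered 363. Other pseudocounts gave 267 and 409, and eBayes without trend 290. Without the low signal filter 0 passed, with a filter at the 10th percentile, added after the data had been seen, 284 (258 shared), with one at the 50th percentile 211, and with only probe sets of 1 gene outside the identifier class with the highest share of calls, fitted and adjusted alone, 160. Genes past it (135) became 0 without the filter, 80 at the 50th percentile and 60 when a gene's probe sets were averaged. Leaving out 1 pair gave 7 to 237 probe sets and 2 to 86 genes; without the ezh2 siRNA no.2 pair it was 7 and 2, without DMSO 102 and 35, without TSA 143 and 49, and without the control siRNA 237 and 86. Counts of the siRNA against drug difference ran from 0 to 64 with 1 pair left out. Of the 363, 299 to 308 were shared with each of the other scalings.

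With equal array medians, list medians moved to −0.14 (SRF and YAP targets), −0.28 (hypoxia and glycolysis), −0.21 (DNA replication), −0.14 (NRF2), −0.027 (zinc finger) and −0.10 (housekeeping), and GAPDH turned to −0.016 at its 3′ and −0.042 at its 5′ probe set. In all, 14 of 25 lists kept their sign in every setting. SLC30A1 turned to −0.091 with the pseudocount at the 40th percentile. None of the reversals concerned a difference past the threshold. Genes past it had the same sign in every pair, so leaving out a pair or moving the pseudocount could not reverse them. Leaving out 1 pair gave −0.29 to 0.55 for OPTN, −0.73 to 0.11 for POLD4, −0.086 to 0.55 for ZSWIM8, −0.66 to 0.35 for MT1E, −0.63 to 0.022 for MT1F, −0.71 to 0.34 for MT1H, −0.27 to 0.98 for MT1HL1, −0.59 to 0.72 for SLC30A1, −0.057 to 0.74 for PAK1IP1, −0.52 to 0.19 for EMP1 and −0.062 to 0.52 for NGFR. For GAPDH it gave −0.090 to 0.037 at the middle and −0.014 to 0.18 at the 5′ probe set, and −0.055 to 0.084 for 3′ minus 5′. The causes were not tested. Values near or under the pseudocount of 25.1 limit the sizes of the falls of ZMAT4, PDK1 and ZNF639. On some arrays of replicate 2 this also holds for LAMP3, PCDHB13, FGFR3, EGR4 and SLC2A3. On arrays of replicate 1 it holds for the rises of KIAA0754, SND1-IT1, SEMA3D, SIGLEC15, RPS6KA6 and RUFY2. Of the 15 named falls 10 had a mean signal under 200, as had 10 of the 15 named rises.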

Other observations

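The ninth array, of cells given another EZH2 siRNA, carries no replicate number. At 272 of the 363 probe sets past the threshold (74.9%), its signal lay nearer to the mean of the siRNA arrays of replicate 1 than to that of replicate 2, against 8445 of the other 15187 (55.6%). For probe sets higher in replicate 2 the share was 80.5%, and for those lower in replicate 2 it was 65.7%. Its hybridisation spikes had a mean log2 signal of 9.89 and its Alu probe set a signal of 15611, both below all 4 arrays of replicate 2. The spike value also lay just below the lowest of replicate 1 (9.90), while the Alu signal lay within the range of replicate 1 (15116 to 20584). This describes 1 array and assigns it to no group.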
